A study of Homo sapiens with 6 samples.

Results

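The genes described here encode the proteasome, its activators and its assembly chaperones. They were chosen by symbol, as every gene named PSMA, PSMB, PSMC, PSMD, PSME, PSMF or PSMG followed by a number. The rule matched 62 rows and 48 symbols in a table of 54607 rows, and 47 of these symbols had a value above 0 in some library. RNA was measured in H358, an epithelial-type human non-small cell lung cancer cell line. Cells of the knockdown group carried short hairpin RNAs, delivered by lentivirus, against both ESRP1 and ESRP2, which encode epithelial splicing regulators, and cells of the control group carried a control knockdown. Each group held 3 libraries, described by the submitters as biological triplicates, so n = 3 in every mean ± SD. The values were FPKM (fragments per kilobase of transcript, relative to all mapped fragments), a level per transcript length.

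The proteasome degrades proteins that carry a ubiquitin chain. Its core particle is a barrel of alpha and beta subunits, in which 3 of the beta subunits cut peptide bonds. A regulatory particle caps the barrel, and its ATPases unfold substrates while its non-ATPase subunits bind ubiquitin and remove it. Interferon induces the immunoproteasome subunits PSMB8, PSMB9 and PSMB10, which take the places of PSMB5, PSMB6 and PSMB7 and shift the peptides made towards those that MHC class I presents. Other caps, such as the activator built from PSME1 and PSME2, can replace the regulatory particle, and dedicated chaperones assemble both particles.

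ESRP1 stood at 12.1, 11.6 and 12.0 FPKM in the knockdown libraries and at 73.5, 72.6 and 72.5 FPKM in the control libraries, and ESRP2 at 54.2% of its control level, so both targeted genes followed the labels. The constructs differ between the groups, so what they do by other routes and what lower ESRP does cannot be told apart. In bulk RNA, fewer cells of a type and less RNA per cell cannot be told apart either. All 6 epithelial markers were expressed, at a summed level of 3018 to 3113 FPKM under knockdown and 3485 to 3593 FPKM in the control, and 5 of the 6 fell. Of 7 blood cell markers, CD68 alone was above 1 FPKM, the pan-leukocyte gene PTPRC stood at 0.219 FPKM under knockdown and 0.229 FPKM in the control, and MS4A1 was listed at 0. The summed blood marker level was 13.4 to 15.1 FPKM under knockdown and 15.8 to 17.4 FPKM in the control, nearly all of it CD68. Of the fibroblast and endothelial markers with a value, COL1A1 alone was above 1 FPKM. It stood at 8.33 to 10.8 FPKM under knockdown and 8.10 to 10.0 FPKM in the control. The depth of the libraries is unknown, since FPKM values carry no totals.

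Most proteasome genes differed little between knockdown and control. Of the 44 members with a mean of at least 1 FPKM, 5 passed limma's test at an adjusted p below 0.05, which is 11.4% of them beside 16.7% of all 13611 genes tested. PSMB2 rose, 1 member or 2.27%, beside 6.54% of all tested genes. PSMB9, PSMD3, PSMD11 and PSME4 fell, 4 members or 9.09%, beside 10.2% of all tested genes. At an unadjusted p below 0.05 there were 9 members, or 20.5%, beside 32.9% of all tested genes. The shares of members called therefore lay below the background in each of these counts, and the share that fell lay near it. With median-ratio scaling 1 member rose and 3 fell, and with TPM scaling 0 rose and 5 fell.

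Counted by libraries instead of by the test, the 3 knockdown and 3 control values did not overlap for 14 members, 31.8% beside 38.1% of all tested genes. In 5 of these members the knockdown was higher, 11.4% beside 17.3%, and in 9 it was lower, 20.5% beside 20.9%. The differences were small in size. For 38 of 44 members the estimated log2 fold change was at most 0.1 in either direction, and for 43 of 44 the whole 95% interval lay within 0.32 of 0 on the log2 scale, beside 74.7% of all tested genes. PSMB9 was the member whose interval reached further. The members were also measured with little spread: their median coefficient of variation was 3.18% among knockdown libraries and 2.08% among control libraries, beside 4.79% and 4.12% for all tested genes. They were highly expressed, with a median level of 72.5 FPKM beside 11.6 FPKM, and 43 of 44 stood above the median of all tested genes.

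**Figure D1:**
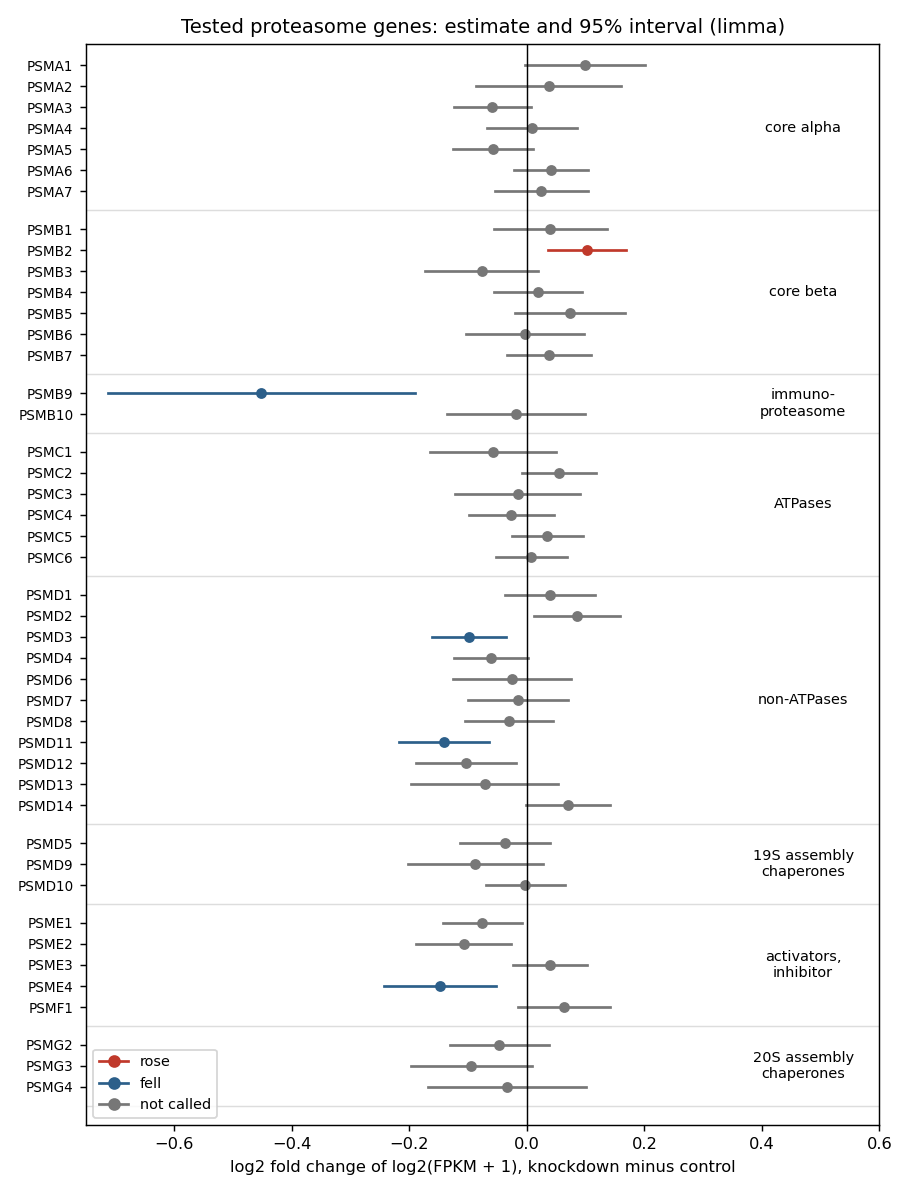
Log2 fold change of log2(FPKM + 1), knockdown minus control, for the 44 tested proteasome genes grouped by role, with points for the limma estimates and bars for their 95% intervals. The estimates lie close to 0 in every group, and PSMB9 at -0.45 stands furthest from it.

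Transcript levels in the core particle were higher than in the regulatory particle. The 14 constitutive core subunits had a median level of 147 FPKM and the 17 regulatory particle subunits one of 57.5 FPKM, a ratio of 2.56. In 10 of the 14 core genes the level was above that of PSMC5, the most expressed of these 17 genes. Subunits whose symbols fall outside the rule are not part of this comparison. Within each particle the levels of subunits spread about as widely, from 59.9 FPKM for PSMB2 to 308 FPKM for PSMB4 in the core (5.14-fold) and from 26.3 FPKM for PSMC1 to 132 FPKM for PSMC5 in the regulatory particle (5.03-fold). Over all 44 genes PSMB4 was highest, followed by PSME2 (221 FPKM), PSMA6 (220 FPKM), PSME1 (204 FPKM) and PSMB1 (185 FPKM), and PSME4 (17.3 FPKM) and PSMB9 (3.46 FPKM) were lowest. Of the 43 pairs of neighbours in this order, 33 overlapped in their range over the 6 libraries, PSME2 with PSMA6 and PSME1 with PSMB1 among them, so their order is not resolved.

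**Figure D2:**
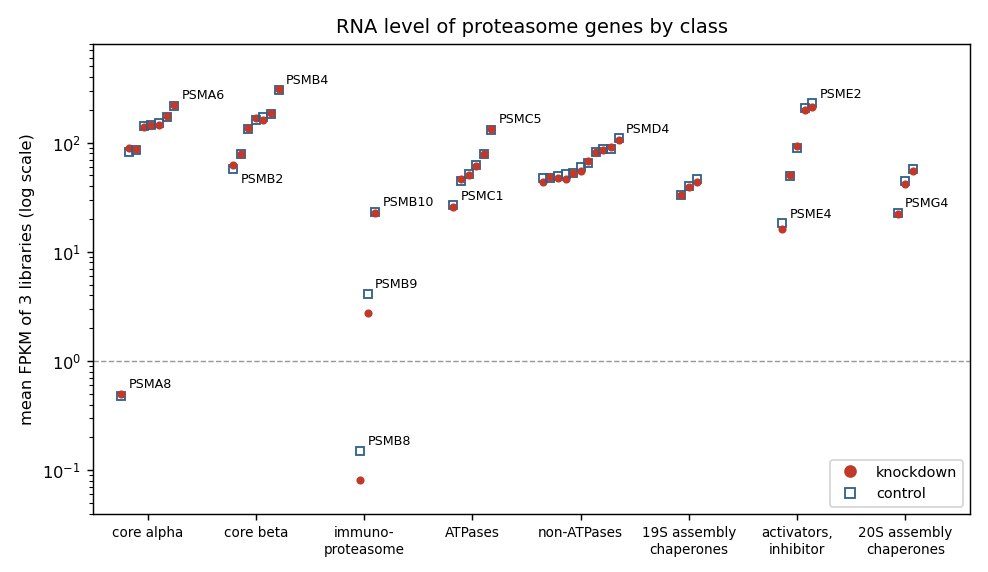
Mean FPKM of 3 libraries on a log axis for each proteasome gene in the knockdown (filled circles) and the control (open squares), by role, with a dashed line at 1 FPKM, the level needed for testing. Core genes lie mostly above 100 FPKM, regulatory particle genes mostly between 40 and 100 FPKM, and the immunoproteasome genes PSMB9 and PSMB8 at 3.46 and 0.116 FPKM over all libraries. PSMB11, whose means lie below the axis, is not drawn.

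None of the 7 tested alpha subunits of the core, which form the outer rings and the gate of the barrel, passed the test. Their median log2 fold change was 0.02, beside -0.00 over all tested genes. PSMA6, the most expressed, stood at 223, 229 and 217 FPKM under knockdown and 216, 216 and 219 FPKM in the control, groups that overlap. PSMA1, the least expressed of the 7, stood at 88.9, 92.7 and 83.6 FPKM under knockdown and 81.0, 80.6 and 85.8 FPKM in the control. Knockdown replicate 3 lay below control replicate 3 here, and the adjusted p was 0.17 with a log2 fold change of 0.10. PSMA3 was the alpha subunit with groups that did not overlap, at 134 to 141 FPKM under knockdown and 142 to 146 FPKM in the control (log2 fold change -0.06, limma adjusted p = 0.19). PSMA8, an alpha subunit of the testis, was below the level needed for testing at 0.504 ± 0.048 and 0.477 ± 0.16 FPKM.

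Of the 7 constitutive beta subunits, PSMB2 rose and none fell, with a median log2 fold change of 0.04. PSMB2 (ENSG00000126067, hg19 chromosome 1, 36067185 to 36107445, minus strand) encodes a beta subunit without catalytic activity. It stood at 62.2, 63.4 and 60.7 FPKM under knockdown and 58.7, 56.9 and 57.8 FPKM in the control. Every knockdown library lay above every control library, by a small margin. The log2 fold change was 0.10 (SE 0.03, limma adjusted p = 0.049), and the call was lost when any library other than knockdown replicate 3 was left out (5 of 6 fits), with adjusted p from 0.042 to 0.145. TPM scaling also ended the call (adjusted p = 0.055).

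The 3 catalytic beta subunits of the constitutive core did not pass. PSMB5, which cuts after hydrophobic residues, stood at 169, 174 and 162 FPKM under knockdown and 158, 154 and 168 FPKM in the control (log2 fold change 0.07, limma adjusted p = 0.25). PSMB6, which cuts after acidic residues, stood at 79.1, 80.8 and 76.1 FPKM and at 76.8, 76.3 and 83.7 FPKM (-0.00, limma adjusted p = 0.97). PSMB7, which cuts after basic residues, stood at 141, 137 and 133 FPKM and at 131, 133 and 137 FPKM (0.04, limma adjusted p = 0.43). In all of them the groups overlap. PSMB4, a structural subunit and the most expressed proteasome gene, stood at 309, 321 and 300.4 FPKM under knockdown and 299.7, 306 and 313 FPKM in the control, again with overlap.

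Of the immunoproteasome subunits, PSMB8 and PSMB9 were listed at low levels and PSMB10 was not, and PSMB9 fell in the knockdown. PSMB9 (ENSG00000240118), the counterpart of PSMB6, stood at 2.94, 2.24 and 3.12 FPKM under knockdown and 3.56, 4.32 and 4.55 FPKM in the control. Every knockdown library lay below every control library, and the mean was 66.8% of the control mean. The log2 fold change on the log2(FPKM + 1) scale, which understates the change of a gene this low, was -0.45 (SE 0.11, 95% interval -0.71 to -0.19, limma adjusted p = 0.033). The call was lost without knockdown replicate 1 (adjusted p = 0.065) or 2 (0.078) and without control replicate 2 (0.108) or 3 (0.110), and held without knockdown replicate 3 or control replicate 1.

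PSMB9 and PSMB8 lie in the MHC region, where hg19 holds alternate haplotype contigs with near-identical copies. Both are the only symbols of the set with more than 1 row, and 14 of their rows are on such contigs. The row used, the one with the highest mean, was on the contig chr6_dbb_hap3 for each of them (4093291 to 4128695 for PSMB9, plus strand), while their rows on the primary chromosome 6 were listed at 0. PSMB9 had 1 further row with a value, on the contig chr6_mann_hap4, at 0.0720 FPKM in knockdown replicate 1, 0.0863 FPKM in control replicate 2 and 0 in the others. PSMB9 also overlaps the peptide transporter gene TAP1 on the opposite strand, at 0.644 FPKM. The values of PSMB8 and PSMB9 are therefore uncertain as levels, and reads shared with other copies were not tested.

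PSMB8, the counterpart of PSMB5, stood at 0.110, 0.0765 and 0.0583 FPKM under knockdown and 0.145, 0.175 and 0.132 FPKM in the control. The knockdown libraries were all below the control libraries, but the level was too low for testing. PSMB10 (ENSG00000205220, chromosome 16, 67968405 to 67970990, minus strand), the counterpart of PSMB7, stood at 23.2, 23.6 and 21.9 FPKM under knockdown and 22.0, 22.9 and 24.8 FPKM in the control. These groups overlap, and the log2 fold change was -0.02 (95% interval -0.14 to 0.10, limma adjusted p = 0.83). PSMB11, a beta subunit of the thymus, was listed at 0 in 5 libraries and at 0.0117 FPKM in control replicate 3.

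The ratio of an immunoproteasome subunit to the constitutive subunit it replaces was taken within each library, so that library scaling drops out. PSMB9 stood at 3.71%, 2.77% and 4.11% of PSMB6 in the knockdown and at 4.64%, 5.66% and 5.44% in the control. PSMB8 stood at 0.0648%, 0.0440% and 0.0360% of PSMB5 in the knockdown and at 0.0917%, 0.114% and 0.0787% in the control. In both pairs the knockdown ratios were all below the control ratios, with means of 3.53% ± 0.69 and 5.25% ± 0.54 for PSMB9 and of 0.0483% ± 0.015 and 0.0947% ± 0.018 for PSMB8. PSMB10 stood at 16.4%, 17.2% and 16.4% of PSMB7 in the knockdown and at 16.8%, 17.3% and 18.1% in the control, where the groups overlap. Two-sided exact permutation tests gave p = 0.1, 0.1 and 0.2 for PSMB9, PSMB8 and PSMB10 (0.15, 0.15 and 0.2 after adjustment over the 3 pairs), and 3 libraries against 3 cannot give less than 0.1.

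The 6 ATPases, which form the ring of the regulatory particle that unfolds substrates, included none that rose or fell, and their median log2 fold change was -0.00. PSMC5 stood at 132, 135 and 134 FPKM under knockdown and 133, 131 and 128 FPKM in the control. PSMC1 stood at 25.1, 27.4 and 24.7 FPKM under knockdown and 27.5, 26.0 and 26.9 FPKM in the control. Both pairs of groups overlap. PSMC2 was the ATPase gene with groups that did not overlap (46.5 ± 0.59 and 44.7 ± 0.61 FPKM, limma adjusted p = 0.20). PSMC1 has a processed copy, PSMC1P1 on chromosome 3, at 78.7 ± 0.25 FPKM under knockdown and 79.0 ± 1.6 FPKM in the control, 2.86 to 3.20 times the level of PSMC1 in each library. How the counting divided reads between them is not known, so the low place of PSMC1 in the order of levels is uncertain. The sum of the pair was 104 ± 1.2 and 106 ± 2.4 FPKM.

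Among the 11 non-ATPase subunits, which include the ubiquitin receptors and the deubiquitinase of the particle, PSMD3 and PSMD11 fell, none rose, and the median log2 fold change was -0.03. PSMD11 (ENSG00000108671, chromosome 17, 30771502 to 30809398, plus strand) encodes a lid subunit that clamps the regulatory particle to the core. It stood at 47.6, 46.6 and 44.8 FPKM under knockdown and 52.4, 50.4 and 50.8 FPKM in the control. The knockdown libraries were all lower, at 90.5% of the control mean. The log2 fold change was -0.14 (SE 0.03, limma adjusted p = 0.027). It passed without knockdown replicate 1 (adjusted p = 0.038) and was lost when any other library was left out (adjusted p up to 0.084).

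PSMD3 (ENSG00000108344, chromosome 17, 38137050 to 38154213, plus strand), another lid subunit, stood at 55.9, 56.4 and 54.2 FPKM under knockdown and 59.3, 59.1 and 59.95 FPKM in the control. Every knockdown library lay below every control library. The log2 fold change was -0.10 (SE 0.03, limma adjusted p = 0.046), and the call was lost whichever library was left out, with adjusted p from 0.067 to 0.127. PSMD12, a lid subunit and the least expressed of the class, stood at 43.7, 44.2 and 43.2 FPKM under knockdown and 49.2, 45.2 and 46.8 FPKM in the control, without overlap, but did not pass (-0.10, limma adjusted p = 0.090).

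PSMD4, a ubiquitin receptor and the most expressed of the non-ATPase genes in the set, stood at 104, 105 and 108 FPKM under knockdown and 109, 110 and 113 FPKM in the control. Its groups did not overlap, and the adjusted p was 0.16 (log2 fold change -0.06). PSMD2, the large scaffold that docks ubiquitin shuttle factors, lay the other way at 93.7, 88.5 and 93.9 FPKM under knockdown and 85.9, 88.0 and 86.1 FPKM in the control (0.09, limma adjusted p = 0.10). The deubiquitinase gene PSMD14 was also higher in every knockdown library, at 68.2 ± 2.3 and 64.8 ± 0.24 FPKM (0.07, limma adjusted p = 0.16). The other 5 non-ATPase genes had overlapping groups and adjusted p between 0.40 and 0.81.

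The 3 regulatory particle assembly chaperones of the set, PSMD5, PSMD9 and PSMD10, did not pass, with a median log2 fold change of -0.04. PSMD10, also known as gankyrin and the lowest of them, stood at 33.5, 33.0 and 33.2 FPKM under knockdown and 33.6, 33.8 and 32.5 FPKM in the control. PSMD9, the highest, stood at 42.9, 45.6 and 42.3 FPKM and at 43.4, 48.8 and 47.0 FPKM. Groups overlap for both. The core assembly chaperones PSMG2, PSMG3 and PSMG4 did not pass either, with a median log2 fold change of -0.05. PSMG2, the highest, stood at 55.3, 56.9 and 52.9 FPKM under knockdown and 58.2, 55.2 and 57.2 FPKM in the control, and PSMG4, the lowest, at 22.2, 23.4 and 21.0 FPKM and at 21.2, 22.9 and 24.3 FPKM. PSMG1, the partner of PSMG2, was listed at 0 in every library. An exact 0 can be a failed estimate here, since the general splicing factor gene U2AF1 was listed at 0 throughout as well, and no level is drawn from it.

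Of the 4 activators and the inhibitor PSMF1, PSME4 fell and none rose, with a median log2 fold change of -0.08. PSME4 (ENSG00000068878, chromosome 2, 54091204 to 54197977, minus strand) encodes a large nuclear activator. It stood at 15.8, 16.0 and 17.2 FPKM under knockdown and 18.0, 18.6 and 17.9 FPKM in the control. The knockdown libraries were all lower, with replicate 3 closest to the control. The log2 fold change was -0.15 (SE 0.04, limma adjusted p = 0.046), and it passed without knockdown replicate 3 (adjusted p = 0.025) and was lost when any other library was left out (adjusted p up to 0.143). Median-ratio and TPM scaling also ended the call (adjusted p = 0.060 and 0.056).

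The interferon-inducible activator genes PSME1 and PSME2 were among the most expressed of the set. PSME1 stood at 199, 204 and 192 FPKM under knockdown and 207, 211 and 209 FPKM in the control (log2 fold change -0.08, limma adjusted p = 0.11). PSME2 stood at 210.1, 223 and 205 FPKM under knockdown and 229, 233 and 226 FPKM in the control (-0.11, limma adjusted p = 0.072). For both genes every knockdown library lay below every control library, and neither passed. Both passed after TPM scaling (adjusted p = 0.042 for PSME1 and 0.034 for PSME2), which moved the median of all tested genes by -0.01 on the log2 scale, and PSME2 passed without knockdown replicate 2 (adjusted p = 0.029). PSME1 and PSME2 are neighbours on chromosome 14, 4397 bases apart in hg19. PSME3, a nuclear activator that interferon does not induce, had groups that did not overlap in the other direction (50.6 ± 0.99 and 49.2 ± 0.24 FPKM, limma adjusted p = 0.36). The inhibitor gene PSMF1 stood at 94.0 ± 2.4 and 90.0 ± 3.0 FPKM (limma adjusted p = 0.25).

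**Figure D3:**
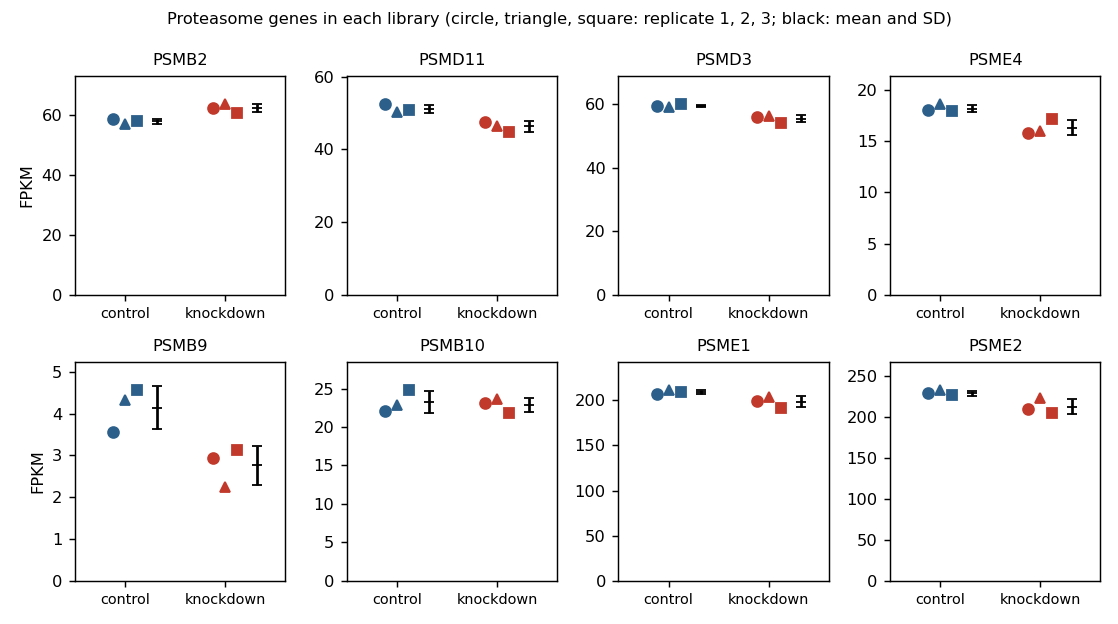
FPKM in each library, on axes from 0, for the 5 proteasome genes that passed the test (PSMB2, PSMD11, PSMD3, PSME4 and PSMB9) and for PSMB10, PSME1 and PSME2, with circles, triangles and squares for replicates 1, 2 and 3 and black bars for the mean and SD. The PSMB9 groups are separated at 2.24 to 3.12 and 3.56 to 4.55 FPKM, and those of PSMB10 overlap.

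The interferon-responsive subunits PSMB9, PSMB10, PSME1 and PSME2, a grouping made after their values were seen, had log2 fold changes of -0.45, -0.02, -0.08 and -0.11, with 1 call among the 4. Sequence around the starts of these genes and of PSMB8 and PSMG4 is shown. In all but PSMB9 the stretch shown holds letters that interferon-regulated factors are known to bind. RefSeq promoter windows of GRCh38.p14, which run from 250 bases before to 50 bases after each start, were found for 41 of the 47 members. The interferon-stimulated response element was searched as GAAANNGAAA on both strands. It was present in 7 members, PSMA4, PSMB4, PSMB8, PSMB10, PSME1, PSME2 and PSMG4, which is 17.1% of the 41 beside 4.38% of all symbols with a window. The lines give 60 bases before and 20 bases from the start, 5′ to 3′ on the gene's strand, with the match in capitals. PSMB9 has no match in its window. PSMB8 has a further window, with its start in chr6:32844660-32844739, which holds no match and is not shown.
PSMB8 (chr6:32844028-32844107, minus strand): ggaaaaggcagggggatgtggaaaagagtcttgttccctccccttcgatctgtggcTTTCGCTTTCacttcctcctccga
PSMB9 (chr6:32854132-32854211, plus strand): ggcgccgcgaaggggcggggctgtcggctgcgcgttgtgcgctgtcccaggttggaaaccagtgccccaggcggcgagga
PSMB10 (chr16:67936831-67936910, minus strand): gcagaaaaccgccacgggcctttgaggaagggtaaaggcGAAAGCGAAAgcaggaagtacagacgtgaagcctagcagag
PSME1 (chr14:24136134-24136213, plus strand): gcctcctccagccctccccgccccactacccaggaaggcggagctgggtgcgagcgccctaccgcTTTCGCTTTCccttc
PSME2 (chr14:24146591-24146670, minus strand): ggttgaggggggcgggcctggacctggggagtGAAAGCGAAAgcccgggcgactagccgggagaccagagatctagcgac
PSMG4 (chr6:3258887-3258966, plus strand): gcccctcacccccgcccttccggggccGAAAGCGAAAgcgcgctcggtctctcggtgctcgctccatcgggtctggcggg

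A match is a description of the letters in a window and not evidence of binding. The 5 matches shown hold the same letters, GAAAGCGAAA, read on the gene's strand in PSMB10, PSME2 and PSMG4 and on the other strand in PSMB8 and PSME1. Of the genes that hold it, PSMB8 was too low for testing, and PSMB10, PSME1, PSME2 and PSMG4 had log2 fold changes of -0.02, -0.08, -0.11 and -0.03, none of which passed. PSMA4 and PSMB4, whose matches hold other letters and are not shown, had log2 fold changes of 0.01 and 0.02 and did not pass either. The gamma-activated site, searched as TTCNNNGAA, was present in 8 members or 19.5%, beside 9.38% of all symbols. PSMD3 was the called member that held it.

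Letters of 3 other elements were searched over the same windows and on both strands. The antioxidant response element TGACNNNGC, of the kind bound by NFE2L1 and NFE2L2, was present in 14 members (34.1%, beside 16.1% of all symbols), among them PSMB9, PSMD3 and PSME4. The ETS core CCGGAAG was present in 15 (36.6%, beside 12.2%), and 6 of these were the non-ATPase genes PSMD6, PSMD7, PSMD8, PSMD12, PSMD13 and PSMD14. The CCAAT box was present in 19 (46.3%, beside 39.7%). Of the called members, PSMB2, PSMB9 and PSMD3 held the CCAAT box, and PSME4 held the ETS core. No match of one motif overlapped a match of another.

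The other genes of the pathway were examined in lists. Of 12 other subunits and proteasome-bound proteins, PAAF1 rose and UBE3C fell, where 16.7% of all tested genes were called in either direction. PAAF1 stood at 21.5, 21.5 and 21.1 FPKM under knockdown and 19.2, 18.95 and 20.05 FPKM in the control (log2 fold change 0.13, limma adjusted p = 0.037). UBE3C, a ubiquitin ligase that binds the proteasome, stood at 29.5, 29.9 and 28.3 FPKM and at 34.5, 31.1 and 33.6 FPKM (-0.17, limma adjusted p = 0.037). The groups did not overlap for either gene. The PAAF1 call was lost whichever library was left out (adjusted p up to 0.121), and the UBE3C call held only without control replicate 2 among the 6 such fits (adjusted p up to 0.116).

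Among 6 regulators of proteasome gene expression, NFE2L1 rose and DDI2 fell, beside calls for 16.7% of all tested genes. NFE2L1, the factor that induces proteasome genes when proteasome activity is short, stood at 54.4, 52.9 and 53.7 FPKM under knockdown and 50.7, 49.9 and 47.2 FPKM in the control (log2 fold change 0.12, limma adjusted p = 0.046). DDI2, the protease that releases the active form of NFE2L1, stood at 12.4, 12.7 and 12.4 FPKM and at 13.96, 14.2 and 13.5 FPKM (-0.14, limma adjusted p = 0.039). The groups of both genes were separate, and both calls were lost whichever library was left out (adjusted p up to 0.119 and 0.128). None of 14 genes of ubiquitin supply and shuttling passed, beside the same 16.7%.

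Genes that drive interferon-dependent transcription or transport peptides into the endoplasmic reticulum were also examined, and NLRC5 and IRF1 fell. Over all tested genes, 10.2% fell. NLRC5, the MHC class I transactivator, stood at 7.22, 8.63 and 7.78 FPKM under knockdown and 10.2, 11.5 and 10.1 FPKM in the control (log2 fold change -0.39, limma adjusted p = 0.011), and was called whichever library was left out. IRF1 had a log2 fold change of -0.21 (limma adjusted p = 0.020), lost without knockdown replicate 1 or 2 or control replicate 3 (adjusted p = 0.064, 0.067 and 0.061). For both genes every knockdown value was lower than every control value, as for PSMB9, PSME1 and PSME2 and for 20.9% of all tested genes. The groups of PSMB10 overlapped. The peptide transporter gene TAP2 was also lower in every knockdown library but did not pass (-0.13, limma adjusted p = 0.33). TAP1, which overlaps PSMB9, was below the level needed for testing at 0.547 ± 0.13 and 0.741 ± 0.11 FPKM. The rows used for TAP1 and TAP2 were on alternate haplotype contigs of the MHC region. Like those of PSMB8 and PSMB9, their values are therefore uncertain as levels.

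The core and regulatory particles were also compared library by library. The median log2 fold change was 0.03 for the 14 core subunits and -0.03 for the 17 regulatory particle subunits. Core subunits deviated together within a library. Taken as the median deviation of a group's genes from their own means on the log2(FPKM + 1) scale, the core stood at 0.02, 0.06 and -0.05 in knockdown replicates 1, 2 and 3 and at -0.04, -0.03 and 0.03 in control replicates 1, 2 and 3. Knockdown replicate 2 was above knockdown replicate 3 in 14 of 14 core genes and 14 of 17 regulatory particle genes, beside 56.4% of all tested genes, and this spread between replicates was larger than the difference between the groups. Without knockdown replicate 2 the core median was -0.00, and without knockdown replicate 3 it was 0.06. The ratio of the core median to the regulatory particle median, in FPKM, was 2.63, 2.65 and 2.61 in knockdown replicates 1, 2 and 3. In control replicates 1, 2 and 3 this ratio was 2.48, 2.49 and 2.53, without overlap. In every library the regulatory particle median was the value of PSMD3, a called gene, so the ratio follows that gene. It was not tested.

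**Figure D4:**
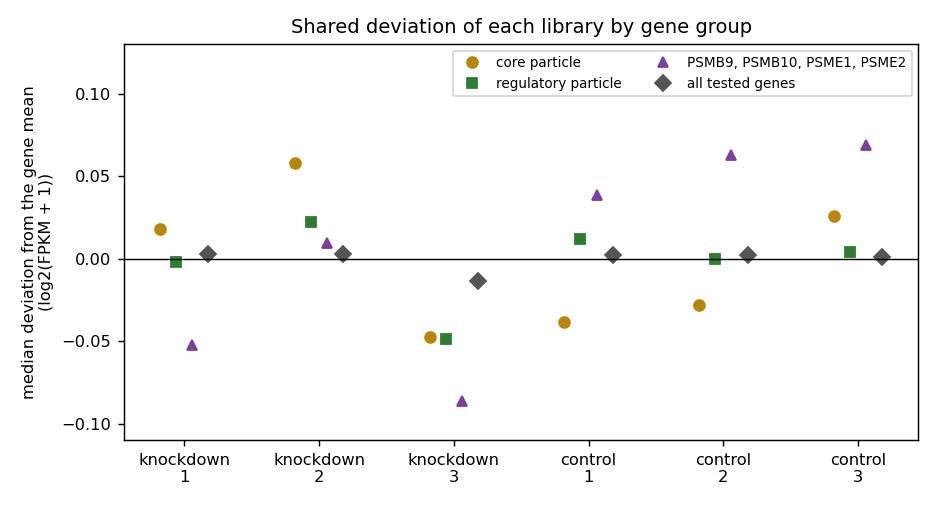
Median deviation of each library from the gene means, on the log2(FPKM + 1) scale, for the 14 core subunits, the 17 regulatory particle subunits, the interferon-responsive subunits PSMB9, PSMB10, PSME1 and PSME2, and all tested genes. The core lies highest in knockdown replicate 2 (0.06) and lowest in knockdown replicate 3 (-0.05), and all tested genes stay close to 0.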

How the data were processed

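The deposited values are FPKM per Ensembl gene and library, made by the authors and used as they stand. The submitters' processing notes name TopHat 1.4.1 and Cuffdiff 2.2.0, with hg19 as the build. Libraries came from a stranded mRNA kit, per the labels' protocols; which annotation release was counted, and with which strand setting, is not given in the sources used here. Depth is unknown, so no counting interval was derived, and overlapping genes on opposite strands may share reads.

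Where a symbol had several rows, the one with the highest mean FPKM was taken. Knockdown minus control was fitted with limma 3.58.1 under R 4.3.3 (two-sided moderated test, with the prior variance following intensity) on log2(FPKM + 1) for all 13611 rows whose mean reached 1 FPKM, with Benjamini-Hochberg adjustment over all of them and a threshold of 0.05. The fit was run on simulated data in which noise was independent for each gene and library. That run did not cover genes that deviate together within a library. Its limits for recovery were set on larger changes than those of most called members, so it says little about these calls. Ratios were tested by exact permutation. No test was made over a list. Some genes of the pathway lists are counted in them but not reported here by name. Every member could be named, and values per library were given for called genes, the immunoproteasome genes and their counterparts, and the highest and lowest gene of each class; others whose groups did not overlap were named after their values were seen. The members and lists were chosen with earlier results of these data known. The alternatives comprised a fit with a replicate block, no intensity trend, a pseudocount of 0.1, a filter of 5 FPKM or none, TPM or median-ratio scaling, each library left out, 1 FPKM added in the ratios, and rows on primary chromosomes alone.

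Starts in the file count from 0 and were raised by 1. Promoter sequences are from RefSeq (GRCh38.p14), and no coordinate was converted between builds.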

Additional observations from a re-analysis of the deposited data

How the results depend on the processing

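Same-numbered libraries of the groups did not deviate together (correlations of -0.02, 0.06 and 0.07), so the numbers were not taken to pair them. With a replicate block 1433 genes were called over the whole table, against 2278, and PSMD11 was the 1 member called. The classes then held 1 call among the non-ATPases and 0 elsewhere. The lists held 1 call among other subunits, which was neither PAAF1 nor UBE3C (limma adjusted p = 0.089 and 0.079). They held 0 calls among regulators and 2 among interferon regulators. Without the filter 1413 genes and 0 members were called, with 1 call left in the lists, an interferon regulator. With a pseudocount of 0.1 no member rose and 4 fell. With a filter of 5 FPKM PSMB9 was not tested, which left the immunoproteasome class with 0 calls (0 also with rows on primary chromosomes alone), and 2 genes of ubiquitin supply were called. With median-ratio scaling 1 member rose and 3 fell, with 0 calls among activators and 1 in ubiquitin supply. With TPM scaling 0 rose and 5 fell, with 2 calls among activators, 1 among regulators and 1 in ubiquitin supply. Without the intensity trend 0 members rose and 1, PSMB9, fell, the other subunits had 0 calls and the regulators 1.

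With any 1 library left out, 1187 to 1983 genes were called over the whole table, 0 to 1 members rose and 0 to 2 fell. The classes with calls (constitutive beta subunits, immunoproteasome, non-ATPases and activators) held 0 to 1 each, other subunits 0 to 1, regulators 0, ubiquitin supply 0 to 3 and interferon regulators 1 to 2. A correction for GC content and transcript length within each library, chosen after the data were seen, gave 2 members that rose and 5 that fell (PSMA3, PSMB2, PSMB9, PSMD2, PSMD11, PSMD12 and PSME4), 1 alpha subunit called and 5 in ubiquitin supply, and 51.5% of all calls were then lower in the knockdown, against 60.9%. The cause was not tested for any of these. The 3 ratios kept their sign in the settings where they could be taken. With rows on primary chromosomes alone, those of PSMB8 and PSMB9 could not, since these rows were listed at 0. Of 741 values of named genes under an alternative, 90 lost a call, 6 gained one and none of the calls reversed; 29 uncalled values changed sign.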
